A study of Mus musculus with 9 samples.

Results

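The genes described here form the system that holds a mouse oocyte in meiotic arrest through cyclic AMP, a small signalling molecule. They are 10 genes listed by name, of 26358 in the table: the receptors Gpr3 and Gpr12, the stimulatory G protein alpha subunit gene Gnas, the adenylyl cyclases Adcy3 and Adcy9, the phosphodiesterase Pde3a, the protein kinase A subunits Prkaca, Prkar1a and Prkar2a, and the connexin Gja4. In the oocyte, Gpr3 signals through the stimulatory G protein to adenylyl cyclase, which makes cyclic AMP, and cyclic AMP keeps protein kinase A active and meiosis halted at prophase. Phosphodiesterase 3A breaks cyclic AMP down. Cyclic GMP that enters from the surrounding follicle cells through gap junctions blocks that breakdown, and the oocyte's part of those gap junctions is built from connexin 37, the product of Gja4.

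RNA of mouse oocytes was sequenced after poly(A) selection in 9 libraries, 3 in each of 3 groups. In the cryopreservation-2 group, oocytes were frozen in straws with 17.5% EG, 1 M trehalose and nanoparticles named PVA/Fe3O4/GO. In the cryopreservation-1 group, the cryotop was used with 15% EG, 15% DMSO and 0.5 M sucrose. The fresh group was not frozen. The device, the cryoprotectants, the sugar and the nanoparticles differed together between the methods, so their parts cannot be told apart. The stage of the oocytes, the strain and age of the mice and any pooling of oocytes do not appear in the labels. Nothing states that replicates came from separate animals or cultures, so each p-value rests on the scatter among these libraries, part of which may be technical.

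The libraries held 49337232 to 51369012 counts in the cryopreservation-2 group, 64276885 to 80877288 in the cryopreservation-1 group and 73899130 to 80100460 in the fresh group. All 12 oocyte markers, with Gdf9 the highest, were present in every library and took at least 1.02% of counts in cryopreservation-2 libraries, 1.14% in cryopreservation-1 libraries and 1.22% in fresh libraries. The 12 cumulus and granulosa cell markers with a row, of 21 listed, took 0.112% to 0.175% of counts in cryopreservation-2 libraries. Their share was 0.102% to 0.125% in cryopreservation-1 libraries and 0.0941% to 0.125% in fresh libraries. These shares were mostly those of Serpine2, with 55504 to 94527 counts in a library. Cyp19a1 came next with 1671 to 5264, and each other marker of that list had at most 727. Immune and blood cell markers, led by C1qb, reached at most 0.00157% of counts, and the stromal and endothelial list, led by Pecam1, at most 0.0219%. No marker with a row was at 0 in all 9 libraries, and the part of these markers in the results was not tested. Fewer transcripts of a gene per oocyte and fewer oocytes holding them cannot be told apart in such bulk samples.

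The receptor Gpr3 was among the most abundant messages of the oocyte, whereas its relative Gpr12 had at most 35 counted reads in a library. Gpr3 lies on the minus strand of chromosome 4 (chr4:133209340-133212536, GRCm38) and encodes a receptor that signals without an added ligand. Gpr12, on the minus strand of chromosome 5 (chr5:146582398-146585239), encodes the related receptor that has been described as the main one in rat oocytes. These paralogues lay far apart in measured level. The 250 bases before the start of Gpr3 and before the more upstream of 2 starts of Gpr12 are therefore shown. They were read from RefSeq windows on GRCm38.p6 at chr4:133212537-133212786 and chr5:146585240-146585489, 5′ to 3′ on the gene's own strand. Capitals mark TGACG or its reverse complement CGTCA, the core of the cyclic AMP response element.
Gpr3: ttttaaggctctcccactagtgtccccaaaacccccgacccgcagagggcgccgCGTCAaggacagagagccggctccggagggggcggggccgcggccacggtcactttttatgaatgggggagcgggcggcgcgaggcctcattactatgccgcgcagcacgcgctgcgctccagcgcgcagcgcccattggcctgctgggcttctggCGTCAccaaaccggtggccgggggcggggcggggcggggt
Gpr12: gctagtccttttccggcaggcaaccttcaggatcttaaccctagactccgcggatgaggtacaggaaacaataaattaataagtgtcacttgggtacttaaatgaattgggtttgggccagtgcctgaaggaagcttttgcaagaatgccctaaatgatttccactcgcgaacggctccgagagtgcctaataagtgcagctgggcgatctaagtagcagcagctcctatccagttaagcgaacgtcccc
The Gpr3 stretch held 2 such matches and the Gpr12 stretch held 0. Of the 250 bases before each of 32851 starts, 17.8% held that core on either strand, and 3.90% held 2 or more. The Gpr3 stretch also held 5 matches of CCGCCC, the GC box core, on either strand, a number that 1.93% of all stretches reached. It was 70.8% GC, against 48.8% for the Gpr12 stretch shown, 55.6% before the other Gpr12 start, which held 0 matches of TGACG and 1 of CCGCCC, and a median of 52.4% over all stretches. A match describes the letters and does not show that a factor is bound there. RefSeq starts covered 9 of the 10 genes, and Pde3a had no entry. Of these genes, 6 held TGACG and 8 held CCGCCC before at least 1 start, with up to 6 starts per gene. Counted by start, 10 of 20 held TGACG, beside 17.8% of all stretches. For CCGCCC it was 11 of 20, beside 32.7%. Some of the 20 stretches overlap, so they are not independent. Adcy9, a gene of low level, had 78.8% GC, 4 matches of CCGCCC and 1 of TGACG. A relation of these letters to level was not tested.

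**Figure D1:**
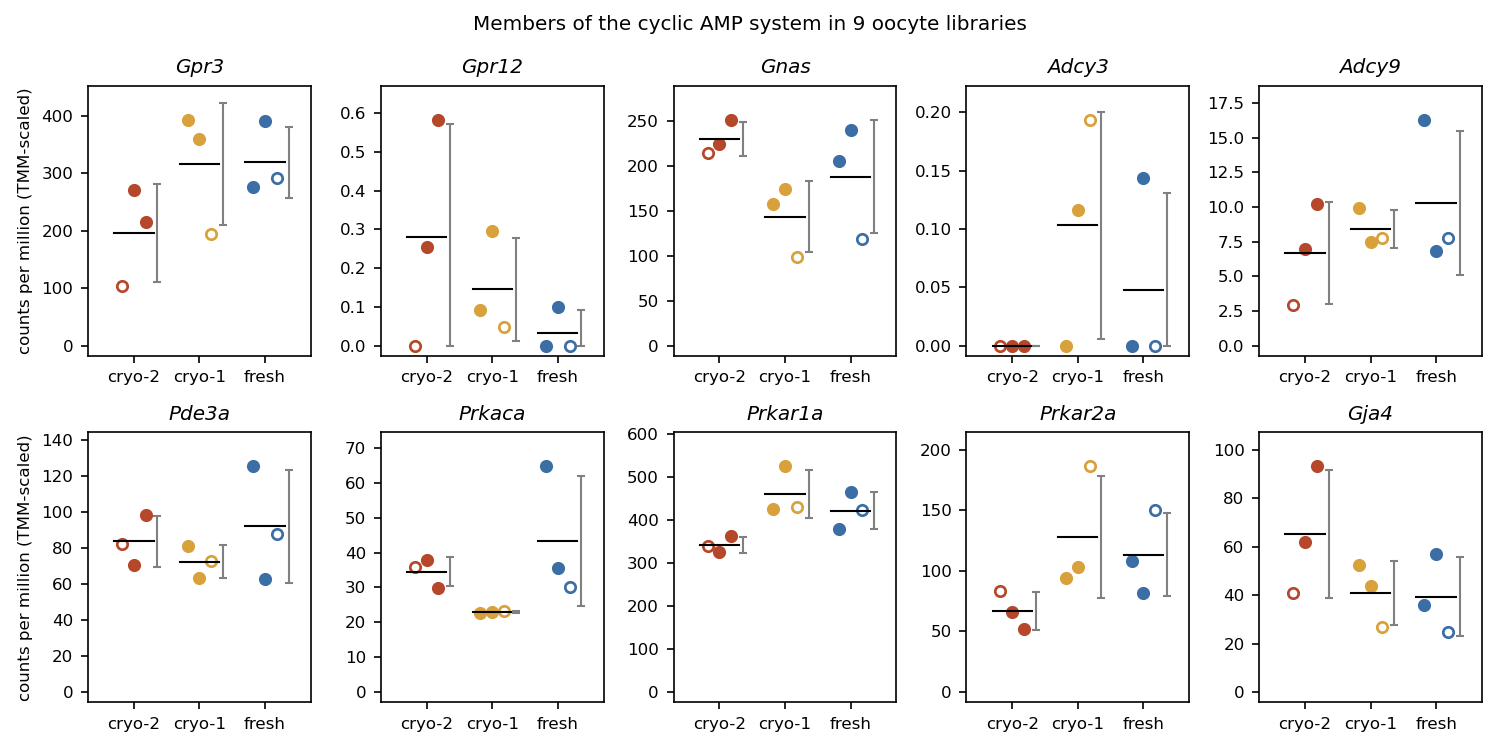
TMM-scaled CPM (vertical axes from 0, 1 scale per panel) of the 10 genes in the cryopreservation-2 (cryo-2), cryopreservation-1 (cryo-1) and fresh libraries; each point is 1 library, black lines are means of 3 and grey bars are SDs, cut at 0. Open points mark the library of each group with the fewest detected genes, which was the lowest of its group for Gnas and Gja4 and the highest for Prkar2a in all 3 groups.

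Levels between genes are given in FPKM, a fragment count scaled for gene length and library depth, and values of 1 gene across libraries in CPM, read counts scaled for library depth with TMM, edgeR's correction for library composition. Mean FPKM of Gpr3 was 66.9 ± 30.8 in cryopreservation-2 libraries, 101 ± 32.9 in cryopreservation-1 libraries and 97.1 ± 12.4 in fresh libraries (SD, n = 3 each), which placed it 666th, 449th and 450th of 26358 genes. Among 634 genes that the table annotates as G protein-coupled receptors, Gpr3 ranked 3rd by mean FPKM in cryopreservation-2 oocytes, 2nd in cryopreservation-1 oocytes and 2nd in fresh oocytes. Grm2, a glutamate receptor gene, was above it in each group, and Tm2d1 in cryopreservation-2 oocytes only (96.0 FPKM). Gpr12 ranked 146th, 216th and 343rd in these groups. Gpr12 was supported by 0, 14 and 35 reads in cryopreservation-2 libraries, 7, 23 and 3 in cryopreservation-1 libraries and 0, 7 and 0 in fresh libraries. The table lists 2 of its 5 transcripts in GENCODE release M21 and 1 of its 4 coding ones, against all 3 for Gpr3. Whether reads of the unlisted transcripts were counted is not stated, so the level of Gpr12 may be understated. The reads of Gpr12 overlapped between all groups, and a difference was not detectable at this depth. Gpr12 passed the filter on low counts only through frozen libraries, so its fold changes against fresh oocytes are not given. Between the methods, the fit gave a log2 fold change of 0.94 (SE 1.94), with a 95% interval that includes 0.

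Gpr3 itself had 103, 270 and 216 CPM in cryopreservation-2 libraries, 393, 359 and 194 in cryopreservation-1 libraries and 275, 390 and 291 in fresh libraries. All 3 cryopreservation-2 libraries lay below all 3 fresh libraries, the closest of them by a narrow margin, while the cryopreservation-1 libraries spanned the fresh range. The log2 fold change was -0.70 (SE 0.36, 95% interval -1.50 to 0.10) in cryopreservation-2 against fresh oocytes, and edgeR's quasi-likelihood test with Benjamini-Hochberg adjustment over 17545 genes gave an adjusted p of 0.296. In cryopreservation-1 against fresh oocytes it was -0.02 (SE 0.36, interval -0.82 to 0.78, adjusted p = 1), and in cryopreservation-2 against cryopreservation-1 oocytes -0.68 (SE 0.36, interval -1.49 to 0.12, adjusted p = 0.346), by the same test.

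Cd164l2, which lies on the opposite strand (chr4:133212131-133224555), shares 204 exonic bases with Gpr3. The libraries were strand-marked by dUTP, but the labels and headers do not give the strand setting of the counting. Some reads of the shared stretch may therefore be counted for either gene. At another such overlap, Adcy3 shares 1380 exonic bases with the opposite-strand gene Cenpo. Cenpo had 3976 to 9029 counts in a library and Adcy3 at most 12. Whether the same holds for Gpr3 was not tested. The count of Gpr3 divided by that of Cd164l2 was 0.488, 0.543 and 0.567 in cryopreservation-2 libraries, 0.674, 0.689 and 0.661 in cryopreservation-1 libraries and 0.774, 0.703 and 1.05 in fresh libraries. The groups did not overlap in this ratio, which fell into the order cryopreservation-2, cryopreservation-1, fresh from low to high; the ratio was looked at because of the overlap, after the values were seen, and was not tested. Cd164l2 alone had log2 fold changes of -0.12 (SE 0.37) in cryopreservation-2 and 0.24 (SE 0.37) in cryopreservation-1 oocytes against fresh ones, neither of which passed edgeR's test (adjusted p = 0.897 and 1).

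Gnas was well expressed and was higher after the second freezing method than after the first in every library, without passing the test. The gene, on chromosome 2 (chr2:174284320-174346744, plus strand), encodes the G protein subunit that couples Gpr3 to adenylyl cyclase. It is a complex locus with several start sites and imprinted products, and the table lists 12 transcripts for it. It had 215, 225 and 252 CPM in cryopreservation-2 libraries, 157, 175 and 99.0 in cryopreservation-1 libraries and 206, 241 and 119 in fresh libraries. Every cryopreservation-2 library lay above every cryopreservation-1 library, and fresh libraries overlapped both. Its log2 fold change in cryopreservation-2 against cryopreservation-1 oocytes was 0.68 (SE 0.29, 95% interval 0.04 to 1.32), a fold of 1.60, with an unadjusted p of 0.0387 and an adjusted p of 0.230 by edgeR. Against fresh oocytes it was 0.29 (SE 0.29) for cryopreservation-2 and -0.39 (SE 0.29) for cryopreservation-1, with adjusted p of 0.629 and 1 by edgeR. In FPKM, Gnas (14.5 averaged over all libraries) lay below the inhibitory alpha subunit genes Gnai2 (76.7), Gnai3 and Gnai1; of the other alpha subunit genes, those compared were Gnaz, Gnal and Gnao1, all lower. The FPKM of Gnas was computed over 11382 bases, while its longest listed coding transcript has 3903, so its level per length is understated if a single such transcript prevails. The antisense gene Nespas, which shares 988 exonic bases with it, had 4 to 201 counts.

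The cyclase Adcy9 was present at a low level. The gene (chr16:4287529-4420498, minus strand) encodes a cyclase of the plasma membrane and had 2.89, 6.93 and 10.2 CPM in cryopreservation-2 libraries, 9.95, 7.48 and 7.77 in cryopreservation-1 libraries and 16.3, 6.79 and 7.76 in fresh libraries. One cryopreservation-2 library was low and one fresh library was high, and the groups overlapped in every comparison. Its log2 fold changes were -0.62 (SE 0.47, 95% interval -1.67 to 0.43) in cryopreservation-2 and -0.29 (SE 0.47, interval -1.33 to 0.75) in cryopreservation-1 oocytes against fresh ones, and -0.33 (SE 0.47, interval -1.38 to 0.71) between the methods, with adjusted p of 0.502, 1 and 0.803 by edgeR. Adcy9 averaged 1.44 FPKM over all libraries and ranked 2nd of 9 cyclase genes, next to Adcy8 at 1.71 FPKM. Adcy8 encodes a calcium-stimulated cyclase, and its libraries spanned 0.947 to 2.07 FPKM and overlapped those of Adcy9. The 9 include Adcy3, whose level is uncertain for the reason given below, so its place in the ranking is too. Adcy3 (chr12:4133103-4213525, plus strand), a cyclase described in rodent oocytes, was at the floor: 0 reads in each cryopreservation-2 library, 0, 9 and 12 in cryopreservation-1 libraries and 0, 10 and 0 in fresh libraries. It did not pass the filter on low counts and was not tested. The table lists 1 transcript for Adcy3, a retained-intron form, of 8 in GENCODE release M21, and 0 of its 4 coding transcripts. Whether reads of the coding transcripts were counted is not stated, so the low value cannot be read as a low level of the enzyme's message.

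Pde3a, the cyclic AMP phosphodiesterase of the oocyte, had similar values in the 3 groups. The gene (chr6:141249269-141507448, plus strand) had 81.9, 70.2 and 98.5 CPM in cryopreservation-2 libraries, 81.3, 63.0 and 72.7 in cryopreservation-1 libraries and 125, 62.7 and 87.8 in fresh libraries. The ranges of both frozen groups lay within that of the fresh libraries. The log2 fold change was -0.14 (SE 0.26, 95% interval -0.72 to 0.44) in cryopreservation-2 and -0.35 (SE 0.26, interval -0.93 to 0.24) in cryopreservation-1 oocytes against fresh ones, and 0.21 (SE 0.26, interval -0.37 to 0.79) between the methods, with adjusted p of 0.828, 1 and 0.770 by edgeR, so changes smaller than these bounds could have been missed. By mean FPKM, Pde3a came 4th of the 22 listed Pde genes in cryopreservation-2 oocytes (6.06), 2nd in cryopreservation-1 oocytes (4.98) and 3rd in fresh oocytes (6.15). Pde6b had 7.70, 8.22 and 7.52 FPKM in these groups and Pde8a 9.0, 4.95 and 7.68. Pde6d lay above Pde3a in cryopreservation-2 oocytes alone, with 14.1 FPKM there, 2.30 in cryopreservation-1 oocytes and 2.14 in fresh oocytes. Pde6b is known as a cyclic GMP phosphodiesterase of photoreceptors, Pde8a as a cyclic AMP phosphodiesterase, and Pde6d as a prenyl-binding protein that breaks down no nucleotide. Pde3a was far longer than these, with a listed coding transcript of 12302 bases, and held 3850 to 10092 reads in a library. Its paralogue Pde3b reached 3.22 FPKM.

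**Figure D2:**
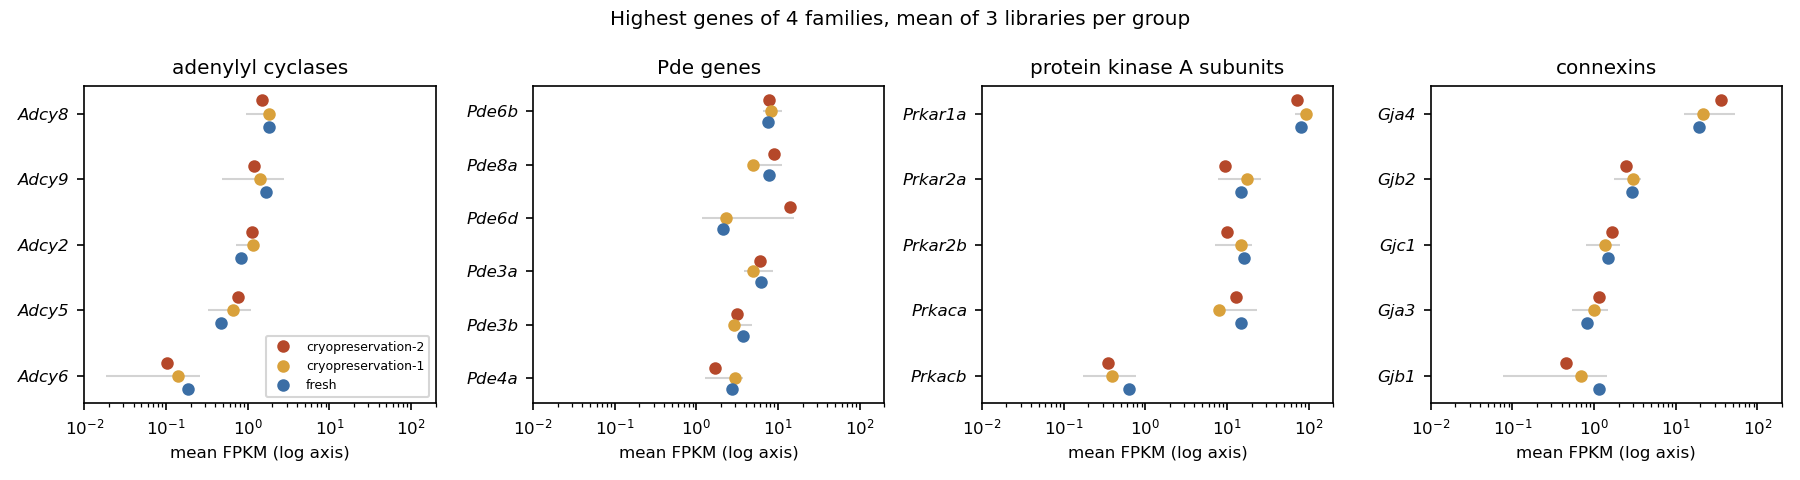
Mean FPKM (horizontal log axes) of the highest genes of the adenylyl cyclases, the Pde genes, the protein kinase A subunits and the connexins; coloured points are means of 3 libraries for cryopreservation-2, cryopreservation-1 and fresh oocytes, grey lines run from the lowest to the highest of the 9 libraries. Prkar1a and Gja4 stood above the rest of their families, and Pde6d lay above Pde3a in cryopreservation-2 oocytes, where Pde3a came 4th, but not in the other groups.

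Of the protein kinase A genes, the regulatory subunit Prkar1a predominated and the catalytic subunit was supplied almost wholly by Prkaca. Averaged over all libraries, Prkar1a had 82.7 FPKM, Prkar2a 14.1, Prkar2b 13.7, Prkaca 11.9 and Prkacb, the other catalytic subunit gene, 0.458 FPKM. Prkar1b had at most 3 reads in any library. Regulatory subunits hold the catalytic subunits inactive until cyclic AMP binds to them. The levels of Prkar2a, Prkar2b and Prkaca overlapped across libraries, and Prkar1a was higher than these in each library.

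Prkaca (chr8:83972993-83996443, plus strand) was lowest in cryopreservation-1 oocytes. It had 35.7, 37.9 and 29.8 CPM in cryopreservation-2 libraries, 22.7, 22.9 and 23.2 in cryopreservation-1 libraries and 64.7, 35.6 and 30.0 in fresh libraries. The cryopreservation-1 libraries were nearly equal and lay below all 6 other libraries, whereas 1 fresh library was well above the rest. Its log2 fold change in cryopreservation-1 against fresh oocytes was -0.92 (SE 0.29, 95% interval -1.56 to -0.28), with an unadjusted p of 0.00895 and an adjusted p of 1 by edgeR, a comparison in which edgeR called 0 genes, with 828 at an unadjusted p under 0.05, and DESeq2 called 67. Without fresh replicate 1 it was -0.51. The interval of the difference therefore excluded 0 before adjustment only. Between the methods, Prkaca was higher in every cryopreservation-2 library, with a log2 fold change of 0.59 (SE 0.29, interval -0.05 to 1.22, adjusted p = 0.298 by edgeR).

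Prkar1a (chr11:109649405-109669656, plus strand) varied least of the 9 tested genes, with a biological coefficient of variation of 0.178. It had 340, 325 and 362 CPM in cryopreservation-2 libraries, 426, 525 and 429 in cryopreservation-1 libraries and 379, 465 and 423 in fresh libraries. All cryopreservation-2 libraries lay below all 6 others. The log2 fold change was -0.30 (SE 0.17, 95% interval -0.68 to 0.08, adjusted p = 0.347) against fresh and -0.43 (SE 0.17, interval -0.81 to -0.05, unadjusted p = 0.0316, adjusted p = 0.207) against cryopreservation-1 oocytes, both by edgeR. In cryopreservation-1 against fresh oocytes it was 0.12 (SE 0.17, interval -0.26 to 0.50). Prkar1a was the 1 gene of the 9 with RefSeq starts to hold the whole cyclic AMP response element, TGACGTCA, which contains TGACG, in the 250 bases before a start, as did 1.55% of all such stretches. The 30 bases around it, before 1 of 6 starts of the gene, are shown with the element in capitals (chr11:109650889-109650918, plus strand, GRCm38.p6).
Prkar1a: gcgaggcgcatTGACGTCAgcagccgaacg
The match was counted before 1 of the 20 starts of these genes, and nothing in these data bears on its use.

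Prkar2a (chr9:108689314-108750436, plus strand), the regulatory subunit gene of the type II kinase, had its lowest library in the cryopreservation-2 group. It had 83.3, 65.8 and 51.6 CPM in cryopreservation-2 libraries, 94.5, 103 and 186 in cryopreservation-1 libraries and 108, 81.9 and 150 in fresh libraries. The cryopreservation-2 libraries lay below all cryopreservation-1 libraries, and 1 of them lay just above the lowest fresh library. Its log2 fold change was -0.94 (SE 0.32, 95% interval -1.65 to -0.22, unadjusted p = 0.0154, adjusted p = 0.145 by edgeR) against cryopreservation-1 oocytes. Against fresh oocytes it was -0.76 (SE 0.32, interval -1.47 to -0.05, unadjusted p = 0.0392, adjusted p = 0.202 by edgeR). In cryopreservation-1 against fresh oocytes it was 0.18 (SE 0.32, interval -0.53 to 0.89).

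The ratio of regulatory to catalytic message was highest in cryopreservation-1 libraries. Its denominator is almost wholly Prkaca, the gene already lowest in those libraries, so the ratio is not independent of that result. The FPKM of Prkar1a divided by that of Prkaca was 5.48, 4.94 and 7.00 in cryopreservation-2 libraries, 10.8, 13.2 and 10.7 in cryopreservation-1 libraries and 3.37, 7.52 and 8.12 in fresh libraries. The cryopreservation-1 libraries lay above all others, and the cryopreservation-2 libraries lay within the fresh range. Summing the measured regulatory and catalytic subunits gave 7.35, 6.04 and 8.06 regulatory per catalytic FPKM in cryopreservation-2 libraries, 13.2, 15.6 and 15.7 in cryopreservation-1 libraries and 4.55, 9.33 and 11.2 in fresh libraries, with the same separation. These ratios were formed after the values of single genes were seen and were not tested.

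**Figure D3:**
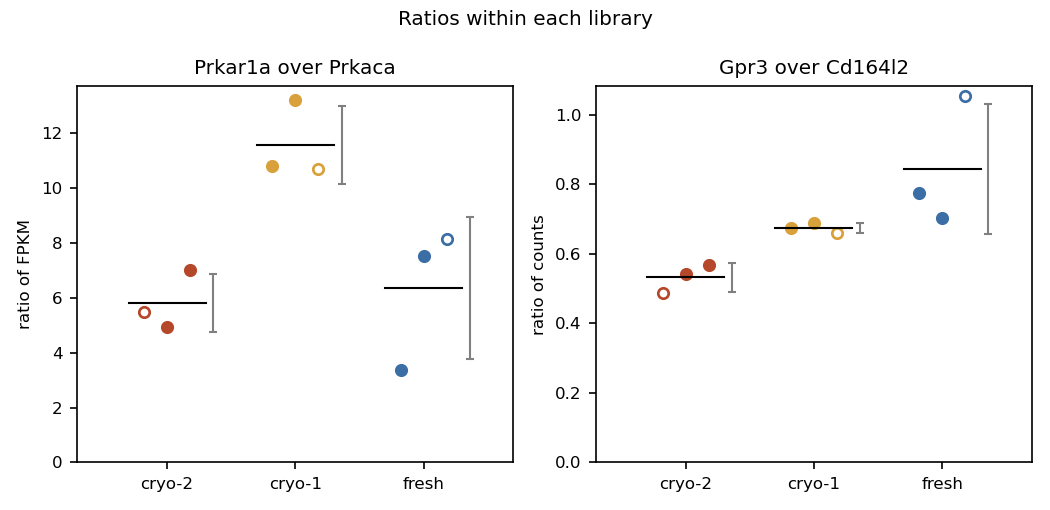
Left, FPKM of Prkar1a over FPKM of Prkaca; right, count of Gpr3 over count of the overlapping antisense gene Cd164l2, in cryopreservation-2 (cryo-2), cryopreservation-1 (cryo-1) and fresh libraries. Points are libraries, black lines means of 3, grey bars SDs, and open points the library of each group with the fewest detected genes; the left ratio reached 10.7 to 13.2 in cryopreservation-1 libraries and at most 8.12 elsewhere.

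Gja4 (chr4:127311421-127314039, minus strand) was the chief connexin message. It averaged 25.6 FPKM over all libraries, 1st of 11 connexin genes, and the next, Gjb2, had 2.78 FPKM. Gja1, which encodes the connexin of cumulus and granulosa cells, had 0 to 12 reads. Gja4 had 40.7, 61.9 and 93.2 CPM in cryopreservation-2 libraries, 52.7, 43.8 and 26.7 in cryopreservation-1 libraries and 36.1, 57.0 and 24.9 in fresh libraries. Both highest libraries were of the cryopreservation-2 group, but the groups overlapped. The log2 fold change was 0.73 (SE 0.39, 95% interval -0.13 to 1.60, adjusted p = 0.313) in cryopreservation-2 against fresh oocytes, 0.06 (SE 0.39) in cryopreservation-1 against fresh oocytes and 0.67 (SE 0.39, interval -0.19 to 1.53, adjusted p = 0.403) between the methods, by edgeR.

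**Figure D4:**
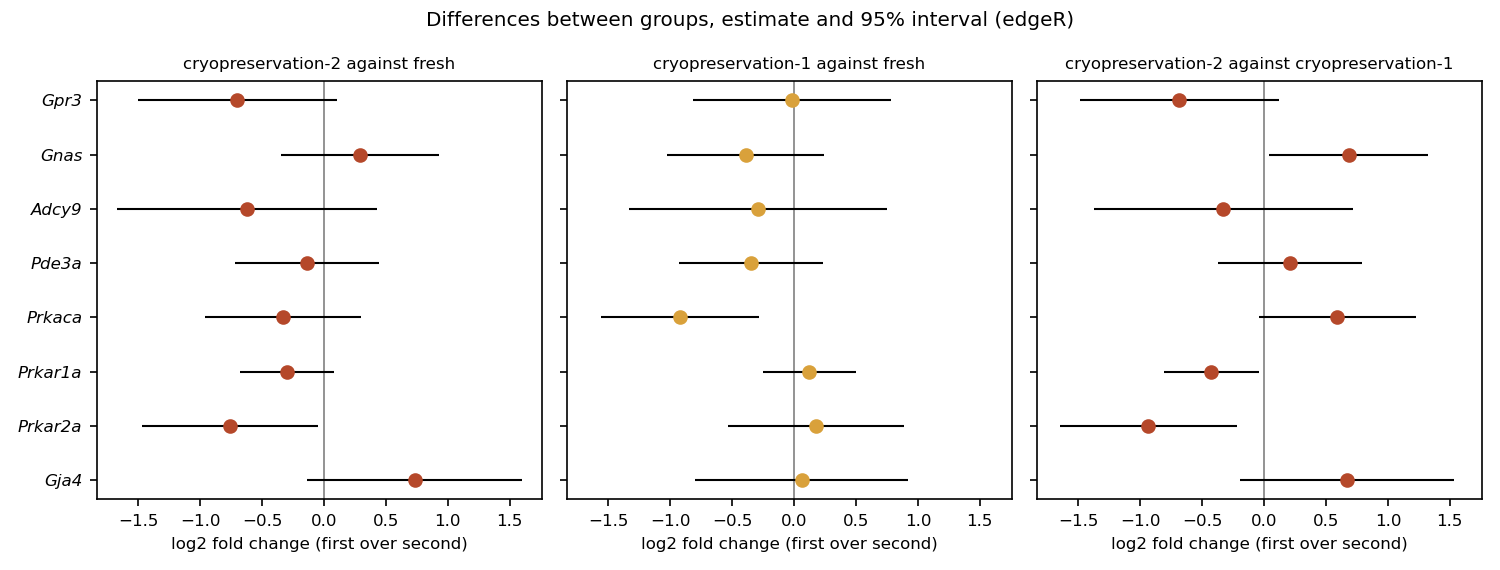
Log2 fold changes (points) with 95% intervals (lines) from edgeR for 8 of the 9 tested genes in cryopreservation-2 against fresh, cryopreservation-1 against fresh and cryopreservation-2 against cryopreservation-1 oocytes; Gpr12 is left out because its intervals run past the axis. Prkaca in the second panel, Prkar2a in the first and the third, and Gnas and Prkar1a in the third have intervals that leave out 0 before adjustment for the number of genes.

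Counted together, 0 of the 9 tested genes were called at an adjusted p under 0.05 by edgeR in any comparison. Gpr12 is among the 9 and in their medians, though it passed the filter on low counts only through frozen libraries. Of all 17545 tested genes, 5.38% were called in cryopreservation-2 against fresh oocytes, 0.00% in cryopreservation-1 against fresh oocytes and 2.75% between the methods. The unadjusted p was under 0.05 for 1 of the 9 in cryopreservation-2 against fresh oocytes (Prkar2a), beside 21.8% of all genes, for 1 in cryopreservation-1 against fresh oocytes (Prkaca), beside 4.72%, and for 3 between the methods (Gnas, Prkar1a and Prkar2a), beside 18.9%. With DESeq2 and with limma on FPKM, 0 of the members were called as well. The libraries of the groups did not overlap for 2 of the 9 in cryopreservation-2 against fresh oocytes (Gpr3 and Prkar1a, both lower), where 27.5% of all genes did not overlap. They did not overlap for 1 of the 9 in cryopreservation-1 against fresh oocytes (Prkaca, lower), where the share of all genes was 10.1%. Between the methods the number was 4 of the 9 (Gnas and Prkaca higher, Prkar1a and Prkar2a lower), beside 29.0% of all genes. Each of these counts lies within 1 or 2 genes of the share over all genes. The median log2 fold change of the 9 was -0.30, -0.02 and 0.21 in these 3 comparisons, against -0.06, 0.02 and -0.07 over all tested genes. The comparisons with fresh oocytes share the fresh libraries and are not independent of each other.

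The library with the fewest genes at 10 or more counts was cryopreservation-2 replicate 1 (14751 genes), cryopreservation-1 replicate 3 (15464) and fresh replicate 3 (14881). In all 3 groups that library was the lowest for Gnas and Gja4 and the highest for Prkar2a, so 3 of the 9 tested genes took the same extreme in each group, beside 21.5% of all tested genes. In the frozen groups it was also the lowest for Gpr3. With those 3 libraries left out, 0 of the 9 were called in any comparison by edgeR. Of all genes, 194 were then called in cryopreservation-2 against fresh oocytes and 0 between the methods. With a term for those 3 libraries in the edgeR fit, Prkar2a was called lower in cryopreservation-2 against fresh oocytes (log2 fold change -0.74, adjusted p = 0.0292) and against cryopreservation-1 oocytes (-0.89, adjusted p = 0.0221). Gnas was called higher in cryopreservation-2 against cryopreservation-1 oocytes (0.73, adjusted p = 0.0462). With that term, 1945 of all genes were called in cryopreservation-2 against fresh oocytes and 1376 between the methods, against 944 and 483 without it. Both alternatives were chosen after the data were seen, and that term was built from the same libraries it adjusts.

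Around these genes, a list of 161 others of the cyclic AMP pathway was read from the same fit, of which 141 had a row and 122 were tested. In cryopreservation-2 against fresh oocytes, 3 rose and 1 fell. In cryopreservation-1 against fresh oocytes, 0 were called by edgeR and 0 by DESeq2. There, 5 had an unadjusted p under 0.05 by edgeR, beside 4.72% of all genes. The 5 include Gucy1b1 and Ptger2, which had 0 reads in each fresh library. Between the methods, 2 rose and 1 fell in cryopreservation-2 oocytes. The called shares were 3.28%, 0 and 2.46% of the 122, beside 5.38%, 0.00% and 2.75% of all tested genes. The median log2 fold change of the 122 was -0.14, 0.06 and -0.20 in these comparisons. By role, the calls in cryopreservation-2 against fresh oocytes were 1 of 26 tested G proteins, receptors and their regulators, 0 of 7 cyclases, 1 of 19 Pde genes, 0 of 19 kinase A subunits, inhibitors and anchors, 2 of 30 targets and opposing enzymes, and 0 of 21 genes of cyclic GMP supply and gap junctions.

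Among the called genes of the list, Pde6d had the largest difference. It had 32.5, 36.7 and 31.2 CPM in cryopreservation-2 libraries, 6.39, 7.98 and 2.85 in cryopreservation-1 libraries and 7.17, 4.88 and 4.51 in fresh libraries. The cryopreservation-2 libraries stood clear of all others, and the fold was 6.06 against fresh oocytes (log2 fold change 2.60, SE 0.38, adjusted p = 0.00846) and 5.82 against cryopreservation-1 oocytes (2.54, SE 0.38, adjusted p = 0.0131), by edgeR. Gnb1, a G protein beta subunit gene, had 514, 298 and 303 CPM in cryopreservation-2 libraries, 85.8, 127 and 118 in cryopreservation-1 libraries and 149, 236 and 144 in fresh libraries. It rose by 1.75 (log2, SE 0.30, adjusted p = 0.0190) in cryopreservation-2 against cryopreservation-1 oocytes by edgeR, and its difference of 1.07 (SE 0.29) from fresh oocytes had an adjusted p of 0.0604. With each of the 9 libraries left out in turn, the call of Pde6d against fresh oocytes held in 9 fits. Between the methods, Pde6d lost its call without cryopreservation-1 replicate 1 or replicate 3, and Gnb1 without any 1 of the 3 cryopreservation-1 libraries, at adjusted p of up to 0.0728 and 0.105.

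The other calls were smaller. Gng3, a G protein gamma subunit gene, rose in cryopreservation-2 oocytes to 59.2, 73.5 and 61.5 CPM, against 30.9, 27.1 and 32.5 in fresh libraries (log2 fold change 1.10, SE 0.26, adjusted p = 0.0377 by edgeR). Ywhah, a 14-3-3 protein gene of a family that holds phosphorylated Cdc25 proteins, had 59.4, 42.0 and 30.0 CPM in cryopreservation-2 and 11.8, 17.6 and 22.6 in fresh libraries (1.34, SE 0.34, adjusted p = 0.0483 by edgeR). Cdc14b, a phosphatase gene, fell to 6.42, 5.11 and 2.17 CPM in cryopreservation-2 libraries, against 11.0, 15.9 and 13.6 in fresh libraries (-1.56, SE 0.38, adjusted p = 0.0428 by edgeR). The cryopreservation-2 and fresh libraries did not overlap in any of these 3 genes, as was so for 27.5% of all genes. These 3 were picked by a test on the same libraries, so this adds no separate support. In cryopreservation-1 libraries, Gng3 had 34.3, 65.8 and 42.8 CPM, above all fresh libraries and overlapping the cryopreservation-2 ones. Ywhah had 17.1, 24.3 and 14.9 CPM there and Cdc14b 11.3, 13.2 and 10.8, both overlapping the fresh libraries. Ppp1cc, a catalytic subunit gene of protein phosphatase 1, fell with cryopreservation-2 relative to cryopreservation-1, with 53.7, 43.2 and 46.5 CPM against 92.8, 79.5 and 92.3 (-0.88, SE 0.19, adjusted p = 0.0400 by edgeR), and lay between 61.3 and 78.2 in fresh libraries. These calls were near the threshold: with a library left out, Gng3 was called in 3 of 9 fits, Cdc14b and Ppp1cc in 1 of 9 and Ywhah in 0 of 9, with each direction kept.

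Where no listed gene was called, in cryopreservation-1 against fresh oocytes, the smallest unadjusted p belonged to Gucy1b1, a guanylyl cyclase subunit gene, and Ptger2, a prostaglandin E receptor gene. Gucy1b1 had 35, 33 and 22 reads in cryopreservation-1 libraries and 0 in each fresh library. Ptger2 had 0, 39 and 43 reads in cryopreservation-1 libraries and 0 in each fresh library. With no reads in fresh libraries, both passed the filter on low counts only through frozen libraries, so no p is given for them. The highest genes of the lists by mean FPKM were Ccnb1 (964), the cyclin of maturation promoting factor, Rgs2 (453), a regulator of G protein signalling, Akap17b (31.9), a kinase A anchor gene, Pde6b (7.81), Prkg1 (2.99), a cyclic GMP-dependent kinase gene, and Adcy8 (1.71).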

How the data were processed

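Poly(A) RNA of mouse oocytes was sequenced in 9 libraries, 3 per group. The submitters' processing notes name cutadapt 1.9, HISAT2 2.0.4, StringTie 1.3.4d and GRCm38, and name no counting tool, strand setting or annotation release. In the deposited table, the authors gave each gene a raw count and an FPKM per library, the FPKM being that count divided by gene length and by a factor per library. Counts were fitted with edgeR 4.0.16 (R 4.3.3): genes kept by filterByExpr (count of 10, total of 15), TMM scaling, 1 coefficient per group over all 9 libraries, the quasi-likelihood test and Benjamini-Hochberg adjustment over 17545 genes, called under 0.05. The 95% intervals come from the fit's standard errors. PCR copies were not told apart, so counts are reads. The fit was run on counts simulated from its own estimates of spread, with independent libraries. Such counts cannot show how it behaves where libraries deviate together. DESeq2 1.42.0 and limma 3.58.1 on log2(FPKM + 1) and log2(FPKM + 0.1) were alternatives. Transcripts and positions are from GENCODE M21, sequences from RefSeq, both on GRCm38. Replicates of a group were compared and none were the same library (chi-square per degree of freedom of 85.8 to 326). All 10 genes are named in every library; of the listed pathway genes, those called in any comparison, the 2 of smallest p where none was called, and the highest of each list by FPKM. The genes and lists were chosen with earlier results of these data known.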

Additional observations from a re-analysis of the deposited data

Results flagged for a closer look

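Between the freezing methods, 3 of 122 listed genes (2.46%) were called, beside 2.75% of all genes. In cryopreservation-2 against cryopreservation-1 oocytes, these were, by edgeR's quasi-likelihood test, Pde6d (log2 fold change 2.54, adjusted p = 0.0131), Gnb1 (1.75, adjusted p = 0.0190) and Ppp1cc (-0.88, adjusted p = 0.0400). The libraries of these 2 groups did not overlap for any of the 3, as was so for 29.0% of all genes. The 3 were picked by a test on those libraries, so the lack of overlap is no separate support. Gnas (0.68) and Prkar1a (-0.43) were flagged by another rule. Every library of 1 method lay above the mean of the fresh libraries and every library of the other method below it. The share of all genes that meet this rule was not counted. For Prkar1a, cryopreservation-1 libraries at 426 and 429 CPM lay just above the fresh mean of 422. For Gnas the cryopreservation-2 libraries were the higher ones, and for Prkar1a the cryopreservation-1 libraries were. The difference between the methods did not pass edgeR's test for Gnas (adjusted p = 0.230) or for Prkar1a (adjusted p = 0.207).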

How the results depend on the processing

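Of the 10 members, 0 were called in any of the 3 comparisons under DESeq2, limma, other scalings, other filters, the 2 groups alone, the replicate block, a length offset, thinned counts or with a library left out. The counts that moved by more than 1.5 times follow, listed pathway genes before all genes. In cryopreservation-2 against fresh oocytes, where the values were 4 and 944, they were 20 and 2724 with DESeq2, 7 and 1688 with limma on log2(FPKM + 1), 7 and 1597 on log2(FPKM + 0.1), and 2 and 429 from the 2 groups alone. There, 2 listed genes were called with no filter on low counts and 8 at a mean CPM of at least 5. Between the methods, where the values were 3 and 483, they were 13 and 2135, 7 and 1271, and 6 and 1077 with the same 3 tools, and 5 and 842 at that CPM. In cryopreservation-1 against fresh oocytes, all genes called were 67 with DESeq2 and 1 from the 2 groups alone, against 0 with edgeR, where 828 genes had an unadjusted p under 0.05. A replicate block gave 1 and 500 against fresh and 230 of all genes between the methods, and 1 and 497 and 243 with a length offset added. The numbers share no stated source: same-numbered libraries correlated at -0.39 to 0.44 in their deviations, different-numbered ones at -0.34 to 0.41, and 2 of 9 libraries correlated best with their own number. Between fresh and cryopreservation-1 libraries alone, same-numbered pairs correlated at 0.27, 0.36 and 0.44 and different-numbered ones at -0.34 to 0.08. Pairs with cryopreservation-2 libraries showed no such order. Whether fresh and cryopreservation-1 libraries were paired is not stated. With each library left out in turn, all genes called ranged over 0 to 1, 231 to 786 and 15 to 480 in cryopreservation-1 against fresh, cryopreservation-2 against fresh and between the methods, and listed genes over 1 to 5 and 0 to 3 in the last 2. Without the library of fewest detected genes in each group, chosen after seeing the data, the counts were 1 and 194 against fresh and 0 and 0 between the methods. With a term for it they were 14 and 1945, and 8 and 1376, with 1 and 2 members called. Fold changes near 0 changed sign. In cryopreservation-1 against fresh oocytes, with a library left out, they ranged from -0.20 to 0.24 for Gpr3, -0.52 to 0.21 for Adcy9, -0.19 to 0.43 for Prkar2a and -0.18 to 0.43 for Gja4. Gpr3 was 0.0024 and 0.0019 with limma and 0.15 without the 3 libraries, and Gja4 -0.019 with a length offset and -0.0053 with the block added. In cryopreservation-2 against fresh oocytes the ranges were -0.35 to 0.15 for Pde3a and -0.54 to 0.074 for Prkaca, and Pde3a was 0.026 and 0.039 with limma, 0.049 with a length offset and 0.074 with the block added. Between the methods they were -0.11 to 1.98 for Gpr12 and -0.72 to 0.10 for Adcy9. Gpr12 was -0.062 with the term and Adcy9 0.10 without the 3 libraries. The cause was not tested. Depth limits Gpr12, which had at most 35 reads in a library, with 1 of its 4 coding transcripts listed. Adcy3 had at most 12, with only a retained-intron transcript listed.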
